A study of Arabidopsis thaliana with 7 samples.

Results

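The start and the end of male gametophyte development were compared in Arabidopsis thaliana. Of the 7 arrays of the series analysed here, the comparison took the 2 arrays of uninucleate microspores (UNM) and the 1 array of mature pollen grains (MPG), as their labels named them, across all 22746 probe sets that are not controls. The arrays of the stages between them, 2 of bicellular pollen (BCP) and 2 of tricellular pollen (TCP), served to estimate the spread and to place each change in time. All plants were Landsberg erecta (Ler-0, stock NW20) without genetic modification, grown in compost in a growth room at 21 °C with 16 h of light, and the spores of many plants were pooled for each sample. Microspores came from a Percoll density gradient and mature grains from open flowers. The UNM isolate still held some tetrads and bicellular pollen, and the whole grain, with its vegetative cell and sperm cells, was extracted at maturity. The MPG value rests on 1 array and has no replicate check.

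A microspore is the haploid cell released from the tetrad after meiosis. It divides asymmetrically into a large vegetative cell, which will grow the pollen tube, and a small generative cell, which divides again into the sperm cells. The grain then fills with reserves, dries and is shed, and its stored RNAs and proteins serve germination. The comparison asks which transcripts of the dividing, wall-building microspore are still found in the grain that is ready to germinate, and which ones the grain has gained.

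The values were linear intensities, 1 for each probe set of an array. They were compared on the log2 scale, with all arrays at the same trimmed mean of 100 and a floor of 20 for dimmer signals. Where an array of the dimmer stage lay under 20, the fold is only a lower limit and carries the words "at least". Testing was limited to the 14364 probe sets that reached 40 on any of the 7 arrays. A probe set was called higher or lower in MPG at an adjusted p under 0.05 in limma. For every gene given below as higher or lower the MPG signal lay outside both UNM signals. This was so for 13117 of the 14364 tested probe sets, so it adds little to the call. Between the UNM arrays a tested probe set differed by 1.203-fold in the median, and 493 of them (3.43%) differed by over 2-fold. Between UNM and MPG the median difference was 2.27-fold and 8201 (57.1%) differed by over 2-fold. Among the 7350 probe sets with at least 40 on all 3 arrays, the correlation of log2 signals was 0.970 between the UNM arrays and 0.326 and 0.319 between each of them and the MPG array, which is a description, since probe sets are not replicates.

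In mature pollen 2880 of the tested probe sets (20.1%) were higher than in microspores and 5808 (40.4%) were lower, so that 8688 (60.5%) changed in either direction. The rises reached further than the falls. The median fold was 4.02 for the higher probe sets and 3.48 for the lower ones. A change of 10-fold or more was seen for 817 of the higher (28.4%) and 367 of the lower probe sets (6.32%), and of 100-fold or more for 172 and 0. The floor limits the size of a fall, because 1465 of the lower probe sets read under 20 at MPG, while 824 of the higher ones had a UNM array under 20. The smallest change called was 1.49-fold and the largest change not called 4.28-fold. In bulk RNA fewer cells of a type and less RNA per cell cannot be told apart, and since every array was brought to the same mean, a call describes a share of the RNA and not its amount per spore. The median log2 change of the tested probe sets was -0.53, and -0.15 with quantile normalization and 0.00 with scaling to the median. The higher probe sets made up 33.1% of the calls, against 44.3% and 48.7% with these scalings and 45.7% with scaling to the spiked controls. Calls were fewest with that last scaling, at 1070 higher and 1273 lower, but no gene given below as higher or lower changed its direction under any scaling, floor or left-out array.

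**Figure D1:**
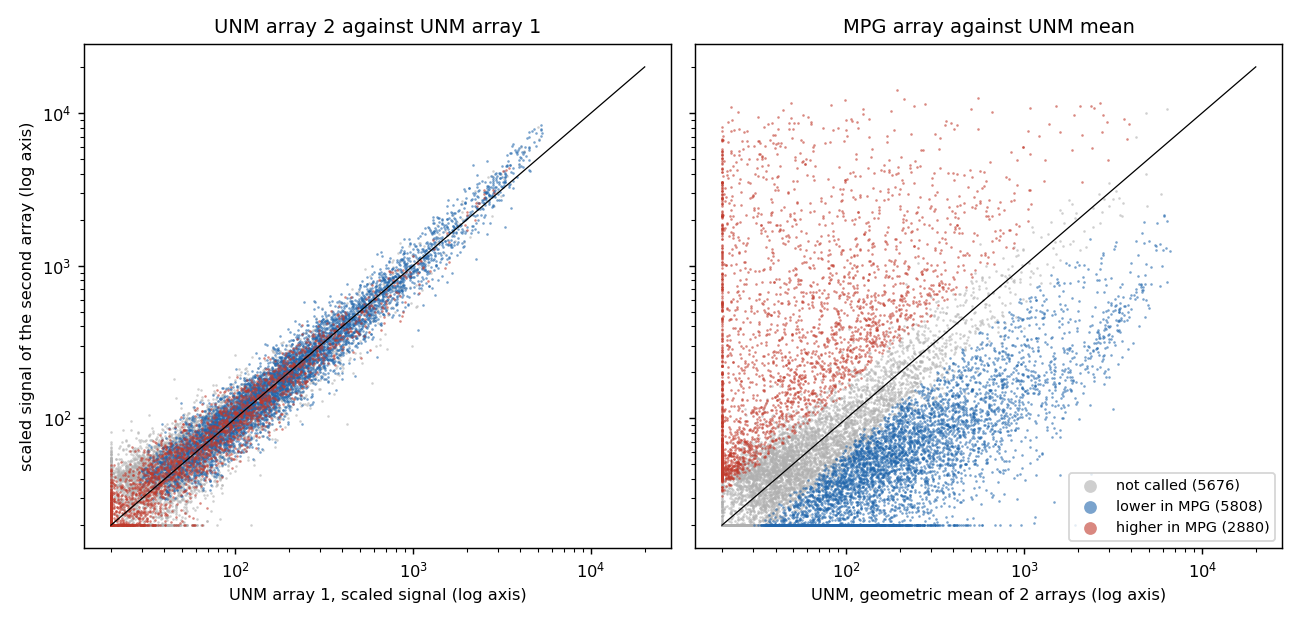
Scaled signals of the 14364 tested probe sets on log axes, the second UNM array against the first (left) and the MPG array against the geometric mean of both UNM arrays (right), with signals under 20 drawn at 20 and the line of equal signal. Red points are the 2880 probe sets higher in MPG, blue points the 5808 lower and grey points the 5676 not called, and the cloud is narrow between replicates and wide between stages.

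The signal of the mature grain was concentrated in fewer probe sets. The brightest 1114 and 989 probe sets of the UNM arrays carried as much signal as all others together, and in MPG the brightest 462 sufficed. The called classes show how much signal the change involved, although their shares must shift because the calls used the same arrays. The 2880 probe sets that were higher at MPG held 9.78% and 9.23% of the summed signal in the microspore samples and 72.7% in mature pollen. For the 5808 lower ones the shares were 68.5% and 68.9% before and 11.4% after. On the arrays between, the higher probe sets held 14.9% and 14.5% in bicellular pollen and 58.5% and 60.2% in tricellular pollen. The UNM arrays shared 83 of their 100 brightest probe sets, whereas 6 of the 100 brightest at UNM were among the 100 brightest at MPG. The 100 brightest of mature pollen had a median signal of 99.9 in microspores, and 23 of them read under 40 on both UNM arrays. The 100 brightest of microspores had a median of 700.1 in mature pollen and 0 of them read under 40 there.

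**Figure D2:**
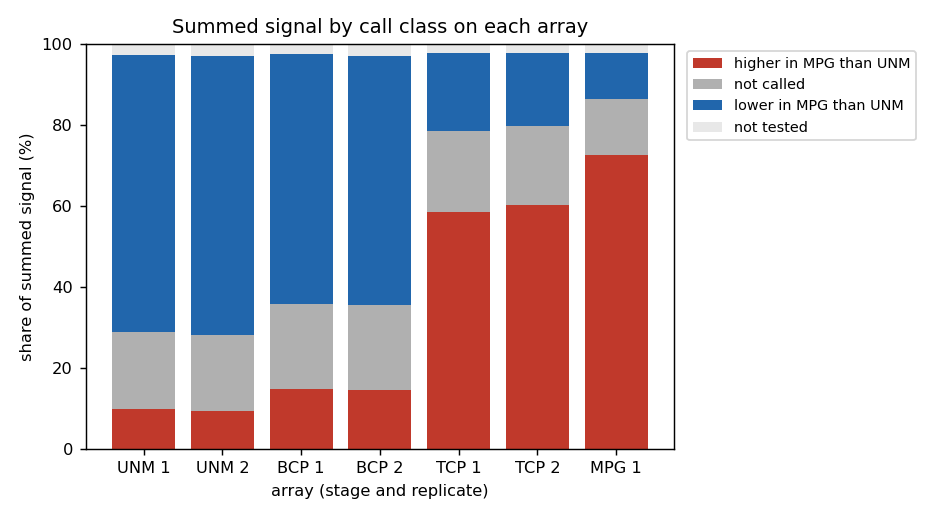
Share of the summed signal of each array (percent) held by the probe sets called higher, not called, called lower and not tested between UNM and MPG, for the 7 arrays by stage and replicate. The higher probe sets held under 10% of the signal on both UNM arrays and 72.7% on the MPG array.

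The steepest rises took genes from near background in microspores to the brightest signals of the grain. PPDK (AT4G15530), pyruvate orthophosphate dikinase, which makes phosphoenolpyruvate from pyruvate, read 12.5 and 5.84 in UNM and 6554 in MPG. The serine carboxypeptidase-like gene scpl38 (AT2G05850) read 5.14 and 4.13 in microspores and 5834 in mature pollen. BGLU36 (AT1G51490), a beta-glucosidase, followed at 14.8 and 25.1 in UNM and 5598 in MPG. All 3 were bright in the grain and under or close to the floor in both microspore samples. PPDK rose at least 328-fold and scpl38 at least 292-fold (adjusted p = 5.46e-05 and 3.75e-05). Above the floor on all UNM and MPG arrays, SP1L4 (AT5G15600), a relative of the microtubule-associated protein SPIRAL1, rose 229-fold from 33.7 and 50.7 to 9467 (log2 change 7.84, standard error 0.37). The gene of SPIRAL1 itself, SPR1 (AT2G03680), moved the other way, from 585 and 994 to 115, a fall of 6.63-fold (adjusted p = 0.00254). APPB1 (AT4G24640) rose 213-fold from 20.8 and 29.8 to 5299. Among loci without a symbol in the tables used here, AT1G78460 had the largest rise with no UNM array under 20, 489-fold, from 20.9 and 24.2 to 10992, followed by AT4G27580 at 296-fold and AT2G02720 at 283-fold. The brightest genes of the grain whose UNM arrays both read under 20 were AT5G54095 at 7646, AT3G17060 at 6745 and AT5G27980 at 6622. LCR72 (AT2G02140), a small cysteine-rich secreted protein of the defensin type, read 43.4 and 36.5 in microspores and 5874 in mature pollen. FIS1B (AT5G12390), a protein of organelle fission, rose 33.0-fold from 97.5 and 94.4 to 3169.

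Plastid genes are described further on. Among nuclear genes above the floor on all UNM and MPG arrays, large falls were those of histone HTB1 (AT1G07790) and a series of loci without a symbol. AT5G38890 read 528 and 501 in UNM and 22.4 in MPG. AT5G62440 read 675 and 649 in microspores and 30.4 in mature pollen, and AT5G15750 went from 962 and 861 to 42.5. Their falls were 23.01-fold, 21.7-fold and 21.4-fold, small beside the rises at the other end of the range. Of the genes that read under 20 in the grain, AT1G15250 was among the brightest in microspores, going from 643 and 840.3 to 7.76. AT3G16580 went from 442 and 612 to 9.17 and AT1G08580 from 547 and 451 to 9.07. These 3 were well measured in both microspore samples and under the floor in the grain.

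Pollen tubes grow at the tip by adding soft wall material and loosening it, and wall genes formed a part of the gain. Of 15 measured genes of glycosyl hydrolase family 9, the endoglucanase family that acts on cellulose-like glucans, 12 were tested, 5 were higher and 2 lower. Over all tested probe sets 20.1% were higher and 40.4% lower. A mean of 40 was reached by 4 of the 15 genes at UNM, and 7 reached 40 at MPG. GH9A4 (AT3G43860) read 28.0 and 39.8 in UNM and 5156 in MPG, a rise of 155-fold (adjusted p = 3.75e-05). GH9B11 (AT2G44560) read 10.8 and 15.8 in microspores and 3383 in mature pollen, a rise of at least 169-fold (adjusted p = 3.75e-05). Both were dim on the UNM arrays and bright in mature pollen. GH9C3 went from 5.54 and 5.94 to 697, GH9B5 from 64.7 and 49.6 to 532 and GH9B12 from 2.11 and 16.3 to 104. GH9B7 (AT1G75680) ran the other way, at 195 and 199.8 in UNM and 34.7 in MPG. GH9A3, a KORRIGAN-type member, went from 203 and 245 to 124, a call lost with quantile normalization (adjusted p = 0.153) and median scaling (adjusted p = 0.162). Among the expansins, proteins that loosen walls without hydrolysis, 19 were measured and 10 tested, of which 4 were higher and 1 lower. A mean of 40 was reached by 3 of the 19 at UNM, and 7 reached 40 at MPG. GH9B11, GH9C3, EXPA4 and EXPA24 passed the minimum for testing only through later stages, where they were high. The counts of higher wall genes are thus partly set by that minimum. EXPA4 (AT2G39700) read 1.31 and 5.24 in microspores and 2642 in mature pollen. EXPA24 (AT5G39310) read 10.4 and 14.5 in UNM and 197 in MPG. Their courses differed: EXPA4 was at 235 and 169 at TCP, far below its MPG level, while EXPA24 was already higher at TCP, at 373 and 439.8, than at MPG. The cellulose synthase superfamily had 6 tested genes, 3 higher and 0 lower, with CSLC6 (AT3G07330) going from 81.5 and 93.2 to 402. AT59 (AT1G14420), a pectate lyase, read 20.5 and 3.12 in microspores and 6656 in mature pollen, a rise of at least 328-fold. Trichome birefringence-like genes, whose products acetylate wall polymers, had 9 tested members with 2 higher, among them TBL20 from 23.5 and 16.4 to 672, and 2 lower, among them TBL26 from 96.6 and 119 to 46.4.

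Tubulin and actin-binding genes were more often higher than lower, beside 20.1% and 40.4% of all tested probe sets. With scaling to the spiked controls 3 tubulin genes and 1 actin-binding gene were still higher and 0 were lower. Of 7 tested tubulin genes 4 were higher and 1 was lower. TUB1 (AT1G75780), a beta-tubulin, read 138 and 128 in UNM and 1081 in MPG. TUA6 (AT4G14960), an alpha-tubulin, was already bright in microspores and went from 808 and 765 to 3808. TUB7 (AT2G29550), another beta-tubulin, fell 5.73-fold from 692 and 852 to 134 (adjusted p = 0.000361). The stage levels of TUB7 went down at each step, with 432 and 464 in bicellular and 339 and 318 in tricellular pollen. Of 8 tested actin-binding genes 3 were higher and 1 was lower. The higher ones were myosins, the motors that move along actin. VIIIB (AT4G27370) went from 49.4 and 41.1 to 457, XIJ (AT3G58160) from 64.9 and 112 to 527 and XIC (AT1G08730) from 124 and 174 to 332. The lower one was the LIM-domain gene WLIM2a (AT2G39900), from 182 and 163 to 31.2. Another LIM-domain gene, PLIM2b (AT1G01780), was not in this list. It rose further than the myosins, by 37.5-fold, at 151 and 126 in microspores and 5174 in mature pollen. The NETWORKED (NET) proteins, which tie actin filaments to membranes, had 6 tested members, with 2 higher and 4 lower. The higher ones were NET2D (AT2G22560), at 20.8 and 37.1 in UNM and 452 in MPG, and NET2C (AT5G10500), at 0.403 and 14.9 in microspores and 221 in mature pollen. The lower ones were NET1A, from 66.9 and 73.2 to 21.8, NET1B, from 36.0 and 47.5 to 19.9, NET1C, from 68.5 and 74.8 to 25.6, and NET3C, from 36.4 and 57.8 to 1.91. The lower genes were dim. The NET1C call was lost with quantile normalization and median scaling (adjusted p = 0.0571 and 0.0729), that of NET1B with median scaling (adjusted p = 0.0943) and that of NET3C without either TCP array (adjusted p = 0.0585 and 0.0576).

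**Figure D3:**
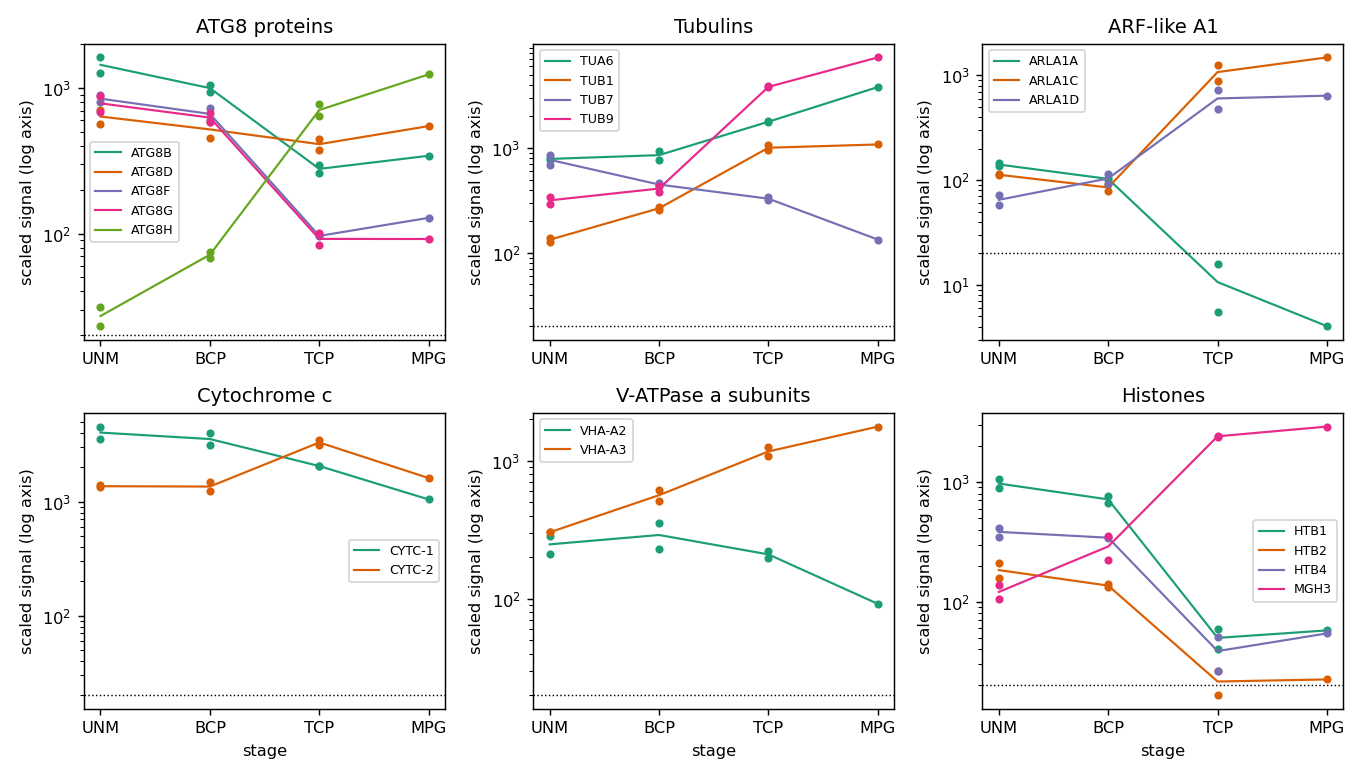
Scaled signal on a log axis at the 4 stages for related genes, with points for single arrays (2 each at UNM, BCP and TCP, 1 at MPG), lines through the stage means and a dotted line at the floor of 20. ATG8H, TUB9, ARLA1C, VHA-A3 and MGH3 were higher in MPG while ATG8F, TUB7, ARLA1A, VHA-A2 and HTB1 were lower.

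Genes of membrane traffic were found on both sides. Secretion depends on small GTPases of the ARF and RAB type, on SNARE proteins and the Sec1-type proteins that regulate them, and on the exocyst, a complex that tethers vesicles at the plasma membrane. The ARF-like gene ARLA1C (AT3G49870) read 114 and 111 in UNM and 1486 in MPG, a rise of 13.2-fold (adjusted p = 0.00021). ARLA1D (AT5G67560) rose 9.93-fold from 71.5 and 58.2 to 641. ARLA1A (AT5G37680) read 137 and 145 in microspores and 4.03 in mature pollen, a fall of at least 7.05-fold (adjusted p = 0.000175). The relatives thus lay on opposite sides, with both UNM arrays of each close together. Of 8 tested PRA1 genes, whose products bind prenylated RAB proteins, 2 were higher and 3 lower. PRA1.B4 (AT2G38360) went from 195 and 151 to 3025, and PRA1.B1 (AT3G56110) from 496 and 425 to 113. The SNARE gene SEC22 (AT1G11890) went from 444 and 375 to 1730.5. The Sec1-type genes KEU (AT1G12360) and SEC1B (AT4G12120) were higher too, KEU by 12.1-fold from 119.7 and 109.9 to 1385 and SEC1B by 2.84-fold from 244 and 279 to 741. Of the exocyst, 7 genes were tested, 0 were higher and 4 lower, among them SEC10 (AT5G12370), from 301 and 333 to 75.6, and SEC15A (AT3G56640), from 123 and 118 to 58.9. SEC10 still read 187 and 251 at TCP and SEC15A 145 and 163, so most or all of their falls came between TCP and MPG. The SEC15A call was lost with quantile normalization and median scaling (adjusted p = 0.154 and 0.132). The ESCRT machinery, which sorts membrane proteins into multivesicular bodies, had 9 tested genes with 3 higher and 3 lower. Like those of PRA1, these counts were not far from the 20.1% and 40.4% of all tested probe sets. VPS46.2 (AT1G73030) rose 4.02-fold from 315 and 319 to 1273, and VPS2.1 (AT2G06530) and VPS20.1 (AT5G63880) rose 2.17-fold and 2.11-fold, whereas VPS2.2 (AT5G44560), a relative of VPS2.1, went from 128 and 91.7 to 19.4. VPS60.2 went from 77.3 and 55.2 to 2.52, while VPS60.1, at 189.9 and 166 in UNM and 183 in MPG, was not called.

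Some signaling components of the tube tip were among the gains. The receptor kinase ANX1 (AT3G04690), which keeps the tube wall intact, read 2.01 and 1.11 in microspores and 1755 in mature pollen, a rise of at least 87.7-fold. PIPK11 (AT1G01460), a phosphatidylinositol phosphate kinase of the tip membrane, read 2.11 and 6.85 in UNM and 3536 in MPG. The RALF peptides, secreted signals some of which bind ANX-type receptors, had 11 measured and 5 tested genes. Of these 2 were higher and 1 lower, beside 20.1% and 40.4% of all tested probe sets. RALFL25 (AT3G25165) rose 174-fold from 26.7 and 45.3 to 6059.6 and RALFL24 (AT3G23805) went from 44.0 and 53.6 to 9.47. Of 5 tested calmodulin-like genes 2 were higher and 1 lower. The median log2 changes of the RALF and calmodulin-like genes were small, 0.11 and -0.02, so neither list moved as a whole. CML42 (AT4G20780) went from 78.6 and 79.0 to 1182, after a higher level of 3157 and 2780.4 at TCP. CML23 (AT1G66400) went from 266 and 138 to 7.56, a fall of at least 9.6-fold with an adjusted p of 0.0136, and its UNM replicates lay apart. Of 7 measured cation/H+ exchangers, antiporters of endomembranes, 4 were tested and higher. Of the 7 only 1 reached a mean of 40 at UNM, so the other tested genes passed the minimum for testing through later stages, where they were high. CHX15 (AT2G13620) read 13.2 and 22.96 in microspores and 1908 in mature pollen, and chx28 (AT3G52080) 1.41 and 3.32 in UNM and 355 in MPG. Genes of subunit a of the vacuolar proton pump went apart, VHA-A3 (AT4G39080) from 303 and 304 to 1769.6 and VHA-A2 (AT2G21410) from 285 and 211 to 92.0, the latter not past the threshold with quantile normalization or median scaling (adjusted p = 0.0764 and 0.0684). Of 14 tested sugar and nucleotide-sugar transporters 2 were higher, 3 lower and 9 not called. With median scaling 5 of 15 tested were higher and 0 lower. AtVEX1 (AT5G62850), also named SWEET5, was among the higher ones. It read 53.8 and 42.2 in microspores and 572 in mature pollen, with 3918 and 2606 at TCP, several times its MPG level.

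Of the genes that the study listed as transcription factors, 417 of 1350 were measured by name and 212 tested. In mature pollen 57 of them were higher and 46 lower, beside the 20.1% and 40.4% of all tested probe sets, and the median change was 0.17 on the log2 scale, which turned to -0.03 with scaling to the spiked controls. The MADS box family had 12 tested members, 7 higher and 0 lower. Members of the MIKC* class, which acts in late pollen, were among them. AGL66 (AT1G77980) went from 137 and 128 to 1939, AGL65 (AT1G18750) from 30.8 and 46.4 to 473, AGL30 (AT2G03060) from 156 and 134 to 661 and AGL104 (AT1G22130) from 358 and 262 to 920.3. AGL104 was brighter at TCP, at 1629 and 1311, than in the mature grain, and so was AGL66, at 2255 and 2189.9. Of other MADS box genes, AGL18 (AT3G57390) read 237 and 284 in UNM and 2800.4 in MPG and AGL29 (AT2G34440) went from 4.43 and 19.9 to 725. EIN3 (AT3G20770), the transcription factor of the ethylene response, rose at least 41.9-fold from 21.5 and 19.1 to 869. The C2H2 zinc finger family had 10 higher and 4 lower of 27 tested genes, with AT3G52800 going from 4.13 and 12.1 to 1841 and AT3G10470 from 24.0 and 31.1 to 814. In the bZIP family 3 were higher and 5 lower of 14, with bZIP18 (AT2G40620) from 49.8 and 61.7 to 1692 and BZIP34 (AT2G42380) from 1.71 and 1.41 to 169. Of 62 listed WRKY genes, a family known from defense and stress responses, only 7 were measured by name and 4 tested. All 4 were lower, and all 4 calls were lost with scaling to the spiked controls (adjusted p in limma 0.1175 to 0.312). WRKY42 (AT4G04450) read 275 and 358 in microspores and 104 in mature pollen. WRKY20 went from 94.95 and 103 to 30.2, WRKY6 from 107 and 118 to 40.2 and ZAP1 (AT2G04880), also named WRKY1, from 124 and 65.5 to 5.04. Of the HMG-box genes 3 of 4 were lower. The C3H family, with 59 tested genes, was balanced at 15 higher and 14 lower, and its bright microspore member AT1G74990 went from 1099 and 1373 to 167.

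Most tested genes of RNA polymerases and of ribosomal RNA processing were lower. Over all tested probe sets 20.1% were higher and 40.4% lower. Of 12 tested subunits of the nuclear RNA polymerases 0 were higher and 11 lower, with a median change of -2.10 on the log2 scale. All 12 reached a mean of 40 at UNM, and 7 reached 40 at MPG. The others passed the minimum for testing only through earlier stages, so the count of lower genes is partly set by that minimum. NRPA1 (AT3G57660) and NRPA2 (AT1G29940) encode the large subunits of RNA polymerase I, which transcribes ribosomal RNA. NRPA1 read 138 and 229 in UNM and 3.83 in MPG, and NRPA2 went from 377 and 351 to 79.8. The subunit gene NRPB12 (AT5G41010) went from 696 and 778 to 67.6, and NRPB7 (AT5G59180) of polymerase II from 200.3 and 117 to 5.74. NRPC2 of polymerase III went from 186 and 185 to 45.8. The gene not called was NRPD7, at 72.6 and 87.2 in microspores and 46.1 in mature pollen (adjusted p = 0.0995). All 7 tested genes of ribosomal RNA processing were lower. RRP41 (AT3G61620) of the exosome, which trims and degrades RNA, went from 513 and 609 to 63.7. IMP4 (AT1G63780) of the small subunit processome went from 867 and 688 to 104 and the RNA helicase PRH75 (AT5G62190) from 388 and 359 to 44.0. The methyltransferase gene DIM1A went from 207 and 155 to 31.2 and DIM1B from 179 and 249 to 43.1, with YAO and RRP41L as the remaining members. All 6 tested LSM genes, whose products form rings on the U6 small nuclear RNA or on mRNAs to be decapped, were lower as well. A mean of 40 was reached by all 6 LSM genes at UNM, and 3 reached 40 at MPG. The LSM and ribosomal RNA processing families were picked by symbol after their values were seen. LSM3B (AT1G76860) fell 12.1-fold from 284 and 305 to 24.3 and LSM6A (AT3G59810) at least 8.54-fold from 144 and 202 to 6.55. LSM1A, of the decapping ring, went from 512 and 434 to 110.0. SE (AT2G27100), SERRATE, a factor of microRNA processing and splicing, went from 89.3 and 101 to 11.8. Of 4 tested genes of the spliceosome and SR proteins 0 were higher and 1 lower, with a median change of 0.27, so the falls did not extend to all lists of RNA processing.

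Translation factors fell for the most part, with exceptions. Of the 82 core translation factor genes in the study's list 32 were measured by name and 29 tested. Of these 4 were higher and 19 lower, with a median log2 change of -1.33. Over all tested probe sets 20.1% were higher and 40.4% lower. The 3 tested genes of initiation factor eIF1, which takes part in start codon selection, were all higher, and AT1G54290 rose 71.8-fold from 40.1 and 35.9 to 2720.0. The remaining higher gene was AT1G72340, of eIF2B alpha, from 269.9 and 348 to 749. Among the lower ones EIF4A-2 (AT1G54270), an RNA helicase that unwinds the mRNA leader, read 1694 and 2197 in UNM and 433 in MPG, with 1188 and 1674 at TCP. The elongation factor gene AT5G19510 (EF1B alpha) went from 4456 and 4232 to 850.3, the eIF2 beta gene AT3G07920 from 242 and 215 to 38.4 and the eIF4G-like gene AT4G30680 from 73.2 and 52.2 to 11.5. The alanyl-tRNA synthetase ALATS (AT1G50200) fell 8.83-fold from 562 and 632 to 67.5. Some chaperone genes were lower too. Of 8 tested genes of the HSP70-HSP90 organizing protein, the chaperonin 60 beta subunits and the Fes1 nucleotide exchange factors, 0 were higher and 6 lower. These genes were grouped by symbol after their values were seen. In the list of heat shock proteins the 1 tested gene was not called. Hop1 (AT1G12270) read 283 and 282 in microspores and 24.6 in mature pollen. Hop2 (AT1G62740) went from 499 and 542 to 61.8 and Cpn60beta3 (AT5G56500) from 636 and 556 to 69.6.

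**Figure D4:**
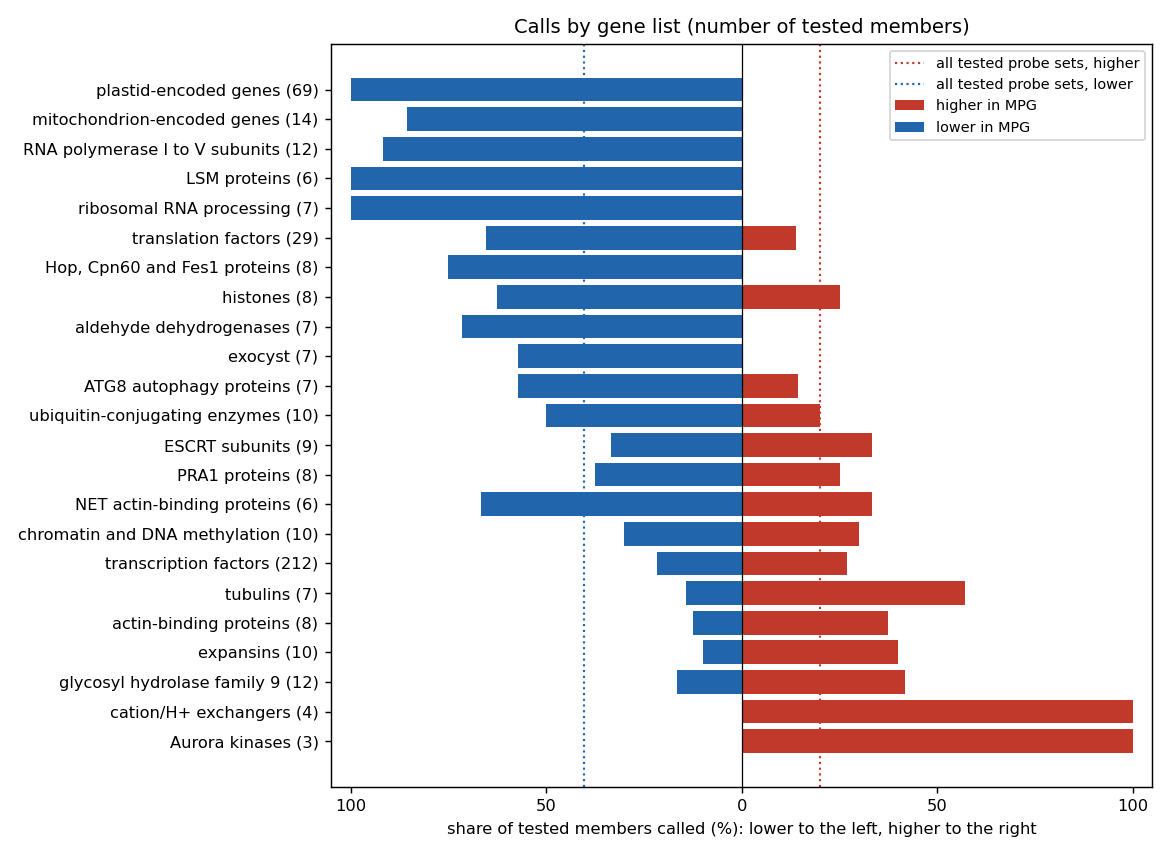
Share of the tested members of each gene list (percent, number of tested members in brackets) that were called higher in MPG (red, to the right) or lower (blue, to the left), with dotted lines at 20.1% and 40.4%, the shares over all 14364 tested probe sets. Plastid, LSM and ribosomal RNA processing genes were all lower, while the Aurora kinases and cation/H+ exchangers were all higher. The LSM, ribosomal RNA processing and Aurora families were picked by symbol after their values were seen.

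Genes of chromosomes and division did not move as 1 group. Microspores still have mitoses ahead of them, and the mature grain has completed both. Of 8 tested histone genes 5 were lower and 2 higher. Of the histone H2B genes, HTB1 read 890.2 and 1049 in UNM and 57.6 in MPG, HTB4 (AT5G59910) 415 and 350.3 in microspores and 54.4 in mature pollen and HTB2 (AT5G22880) 211 and 156 in UNM and 22.5 in MPG. MGH3 (AT1G19890), the histone H3 variant of the male gametes, read 137 and 104 in microspores and 2897 in mature pollen (log2 change 4.60, standard error 0.34). The other rise was the linker histone HIS1-3 (AT2G18050), at a low level, from 3.83 and 16.5 to 45.2. Topoisomerase TOPII (AT3G23890) went from 105.4 and 117 to 22.7 and the spindle checkpoint gene BUB3.1 (AT3G19590) from 265 and 231 to 50.3. Of 5 tested DNA replication genes 0 were higher and 2 lower, the latter close to the 40.4% of all tested probe sets. The 3 tested Aurora kinases, which act on chromosomes and spindle in mitosis, were all higher, beside 20.1% of all tested probe sets. This family was picked by symbol after its values were seen, so its count is only a description. AUR1 (AT4G32830) read 286 and 299 in UNM and 2731 in MPG, a rise of 9.35-fold (adjusted p = 0.000144). AUR2 (AT2G25880) rose 14.4-fold from 133 and 176 to 2202 (adjusted p = 0.000379) and AUR3 (AT2G45490) 2.24-fold from 129 and 149 to 309.9 (adjusted p = 0.00685). The rise followed bicellular pollen, where AUR1 still read 317 and 361, and had reached 1969.5 and 1806 in tricellular pollen. Of 10 tested chromatin genes 3 were higher and 3 lower, not far from the shares over all tested probe sets. The chromatin remodeling gene CHR17 (AT5G18620) went from 121 and 131 to 384 and ATRX (AT1G08600) from 207 and 274 to 571. DME (AT5G04560), DEMETER, a DNA demethylase, went from 89.8 and 104.7 to 31.2.

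Genes of protein turnover changed in both directions. ATG8 proteins are coupled to the membrane of the autophagosome, and 7 of their genes were tested, with 1 higher and 4 lower. ATG8B (AT4G04620) read 1268 and 1629 in microspores and 343 in mature pollen. ATG8F (AT4G16520) went from 804 and 892 to 128 and ATG8G (AT3G60640) from 684 and 890.0 to 91.8. ATG8H (AT3G06420) read 31.1 and 23.1 in UNM and 1246 in MPG, a rise of 46.5-fold (log2 change 5.54, standard error 0.27). ATG8D (AT2G05630) read 568 and 709.6 in microspores and 549 in mature pollen and was not called, with a 95% interval of the log2 change of -0.90 to 0.48. ATG8H was dim in microspores and bright in the grain, and the others ran the opposite way or held. Of 10 tested ubiquitin-conjugating enzymes 2 were higher and 5 lower. UBC28 (AT1G64230) rose 6.79-fold from 497 and 469 to 3280.2 and UBC30 (AT5G56150) went from 2181 and 2984 to 674. UBC20, at 707 and 627 in UNM and 667 in MPG, was not called, nor was UBC22, at 854 and 712 in microspores and 857 in mature pollen. Of 11 tested ubiquitin-specific proteases 2 were higher and 5 lower. The counts of both groups lay near the 20.1% and 40.4% of all tested probe sets. Among the proteases, UBP25 went from 98.9 and 54.4 to 237 and UBP23 from 222 and 274 to 45.9. The U-box ubiquitin ligase gene PUB15 (AT5G42340) rose at least 106-fold from 10.1 and 27.3 to 2479. CEG (AT3G22650), the F-box gene CEGENDUO, read 7.75 and 11.5 in UNM and 817 in MPG. FBL17 (AT3G54650), an F-box gene of the germline cell cycle, went from 102 and 85.4 to 41.1, a call lost with median scaling (adjusted p = 0.0731) and without the first UNM array (adjusted p = 0.0585).

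Transcripts of both organelle genomes were lower. All 69 measured plastid genes were lower, with medians between -2.87 and -4.22 on the log2 scale from one complex to another. The photosystem II genes had the lowest median, -4.22 over 15 genes, followed by photosystem I with -3.98 over 7, the plastid ribosome with -3.92 over 15 and the NADH dehydrogenase-like complex with -3.90 over 10. The ATP synthase genes had a median of -3.57 over 6, the plastid RNA polymerase -3.48 over 4 and the cytochrome b6f complex -3.28 over 6. Of 14 tested mitochondrial genes 12 were lower and 0 higher. The cytochrome oxidase gene cox1 read 1361 and 2079 in microspores and 118 in mature pollen, and at TCP still 998 and 1164. The gene cox2 read 339 and 348 in UNM and 3.83 in MPG, and of complex I nad6 went from 364 and 441 to 30.0, nad9 from 170.1 and 304 to 21.7 and nad4 from 516 and 788 to 56.8. The cDNA was primed with oligo(dT), which copies organelle transcripts only where they hold A-rich stretches. Of 5 tested nuclear genes for mitochondrial respiration 1 was higher and 2 lower, shares close to the 20.1% and 40.4% of all tested probe sets. CYTC-1 (AT1G22840) went from 3512 and 4552 to 1045, while CYTC-2 (AT4G10040), the other cytochrome c gene, read 1338 and 1393 in microspores and 1609 in mature pollen and was not called (95% interval of the log2 change -0.31 to 0.79). SDH2-1 (AT3G27380) of succinate dehydrogenase went from 954 and 907 to 1827, not past the threshold with quantile normalization (adjusted p = 0.278), while SDH2-2, at 849 and 1066 in UNM and 813 in MPG, was not called. The difference between the members of a pair was not tested. Of nuclear genes for plastids, the photosystem II subunit PSBW (AT2G30570) went from 163 and 188 to 21.3 and the division gene FTSZ2-1 (AT2G36250) from 121 and 136 to 12.8. Of 6 tested oleosin and late embryogenesis abundant genes, known from drying tissues, 3 were higher and 0 lower, with LEA27 (AT2G46140) from 158 and 124 to 2257 and the dehydrin HIRD11 (AT1G54410) from 168 and 164 to 1460.5. Both were brighter at TCP, LEA27 at 3464 and 3767 and HIRD11 at 1798 and 2024. Of 7 tested aldehyde dehydrogenases 0 were higher and 5 lower, led by ALDH6B2 (AT2G14170) from 873 and 821 to 134.

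Some transcripts were found at 1 end of development only. A signal of at least 40 at MPG with both UNM arrays under 20 was seen for 494 probe sets, and 181 of these reached 200 and 96 reached 1000 in the grain. The reverse, at least 40 on both UNM arrays and under 20 at MPG, was seen for 1296 probe sets, a larger number, but at lower signals, with 116 at 200 or more and 1 at 1000 or more. The gain of the grain was thus smaller in number and brighter. Of the 494, both TCP arrays read at least 40 for 276 and both BCP arrays for 34. Of the 1296, both BCP arrays still read at least 40 for 1029 and both TCP arrays for 124. With a minimum of 80 in place of 40 the numbers were 264 and 539.

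The stages between placed the change late. For the 1447 probe sets higher by 4-fold or more, the median share of the log2 change reached was 11.0% at BCP and 83.0% at TCP, and 81 of them (5.60%) had passed the middle of their change at BCP and 1334 (92.2%) at TCP. For the 2401 lower by 4-fold or more the shares were 10.0% and 99.01%, with 41 (1.71%) and 2204 (91.8%) past the middle. Among those past the middle of their rise at BCP were AtVEX1, CML42, GH9B5, LEA27 and, barely, HIRD11. The group that waited until after TCP comprised 113 higher probe sets (7.81%) and 197 lower ones. It held EXPA4, SBT3.12 (AT4G21326), a subtilase, from 64.6 and 41.9 to 362 with 111 and 95.5 at TCP, and IVD (AT3G45300), isovaleryl-CoA dehydrogenase of leucine breakdown, from 44.2 and 41.2 to 268 with 52.5 and 73.0 at TCP. The late falls held TUB7, SEC10, EIF4A-2, PSBW and mitochondrial genes such as cox1, nad5 and nad9. These examples of timing were picked with their values in view. A further 891 of the 2401 lower probe sets (37.1%) were lower at TCP than at MPG, and 267 of the 1447 higher ones were higher at TCP than at MPG.

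**Figure D5:**
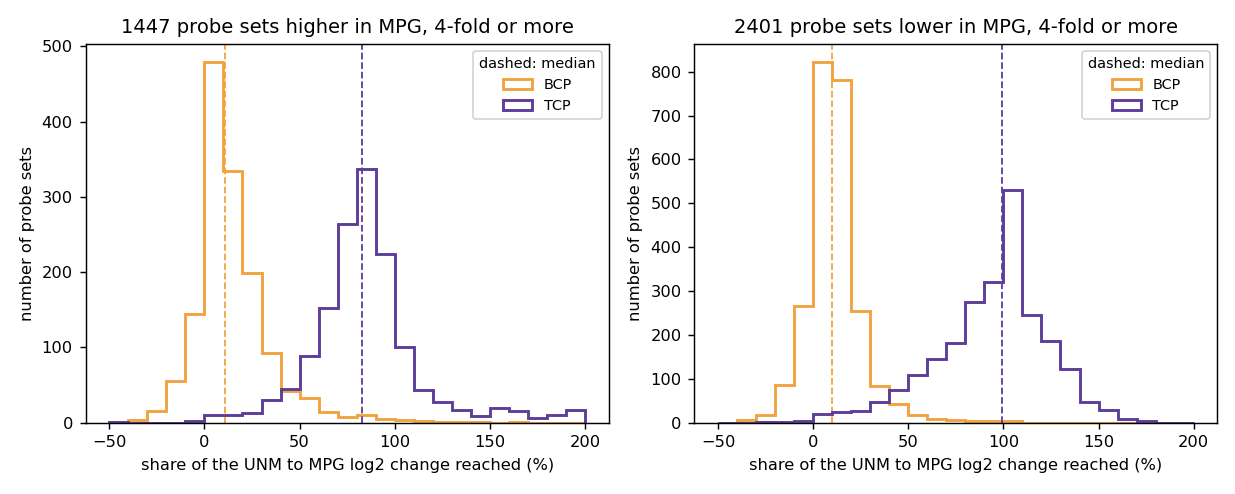
Number of probe sets by the share of their UNM to MPG log2 change that was reached at BCP (orange) and TCP (violet), for the 1447 probe sets higher (left) and the 2401 lower (right) in MPG by 4-fold or more, with dashed lines at the medians and the outermost bars holding all values beyond the axis. At BCP the medians were 11.0% and 10.0%, and at TCP 83.0% and 99.01%.

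Equal signals at both ends did not always mean an even course. Of the 6163 tested probe sets that differed by at most 2-fold between UNM and MPG, 54 were at least 2-fold higher on both BCP arrays than on every UNM and MPG array, and 183 were so on both TCP arrays, while 62 dipped by as much at TCP and 2 at BCP. TET15 (AT5G57810), a tetraspanin, read 395 and 333 in microspores, 1597 and 1221 in bicellular pollen, 684 and 549 in tricellular pollen and 328 in mature pollen. NDB3 (AT4G21490), an NAD(P)H dehydrogenase of the outer face of the inner mitochondrial membrane, read 97.0 and 98.2 in microspores, 1213 and 687 in tricellular and 140.4 in mature pollen. BGLU40 (AT1G26560) followed the same course, with 125 and 122, then 621 and 663, then 153. The myosin XIE (AT1G54560) read 713 and 569 in microspores, 1865 and 1697 in tricellular and 405 in mature pollen. TET15 peaked in bicellular pollen and the others in tricellular pollen. These 4 examples were likewise picked by eye. For 973 probe sets (6.77%) with at least 40 on all 3 arrays the 95% interval of the change lay within 2-fold in either direction. The brightest genes within 0.25 on the log2 scale were AT5G53820, AT5G19760, AT3G08610, CYTC-2 and AT1G51650. AT5G53820 read 2559 and 3092 in microspores and 2718 in mature pollen, between its replicates, and AT5G19760 went from 2778 and 2111 to 2379.8.

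Markers of other cells were checked beside these results. Of late pollen markers 10 were measured and all 10 were higher at MPG, beside 20.1% of all tested probe sets. Their signals summed to 3048 and 3172 in UNM and to 84039 in MPG. These genes were chosen as markers of late pollen. Only 5 of them reached a mean of 40 at UNM, while all 10 reached 40 at MPG. Their count was thus largely set in advance. The tapetum, which feeds the spores in the anther, had 3 measured markers with sums of 66.8 and 84.1 in UNM and 18.5 in MPG, and the 1 tested, AT1G75920, read 33.9 and 43.3 in UNM and 1.41 in MPG. Of 3 meiocyte markers the sums were 104 and 116 at UNM and 65.1 at MPG, and SDS read 45.7 and 72.0 in microspores and 43.5 in mature pollen. The leaf marker RCA (AT2G39730), rubisco activase, read 77.2 and 90.4 in UNM and 44.0 in MPG. The RCA call (adjusted p = 0.0434) was lost with quantile normalization, median scaling and the replicate block and without any 1 UNM or TCP array (adjusted p = 0.0646 to 0.273). Few markers of sporophytic cells were measured. RCA and SDS lay above the minimum for testing on both UNM arrays and on the MPG array, and AT1G75920 did so on the second UNM array. In bicellular pollen RCA read higher, at 125 and 173. Whether the samples held RNA of sporophytic cells was not tested beyond these markers. The GAPDH control probe sets read higher at the 3' end than at the 5' end by 0.88 and 2.89 (log2) in UNM and 1.21 in MPG, and the ubiquitin controls by 2.36 and 2.96 in UNM and 1.91 in MPG. For the actin controls this log2 ratio was 1.79 on both UNM arrays and -2.19 in MPG. Its part in the results was not tested.

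Gene position and size were similar for all classes. The median gene length was 2274 bases for the higher, 2273.5 for the lower and 2296 for the genes not called, and on the 5 chromosomes between 18.8% and 21.8% of the tested genes were higher and between 37.2% and 41.0% lower. The longest run of neighbouring measured genes called the same way was 6 lower genes on chromosome 5, from AT5G50840 to AT5G50900, and the longest runs of higher genes, 4 each, went from AT3G26860 to AT3G26890 and from AT5G16210 to AT5G16240. The number of arrays limits the precision throughout, and near-identical relatives such as histone H2B or tubulin genes can share target sequence on the array, which was not tested.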

How the data were processed

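The 7 arrays were Affymetrix ATH1 GeneChips hybridised with biotin-labelled cRNA from total RNA, primed with oligo(dT). The authors deposited 1 linear intensity per probe set and array for 22810 probe sets, of which 64 controls were left out. The sources used here do not name the software behind these deposited values. A factor of at most 1.0084 per array set the 2% trimmed mean to 100, then signals were floored at 20 and log2 transformed. limma 3.58.1 in R 4.3.3 fitted all 7 arrays with 4 stage means, and adjusted p-values (Benjamini-Hochberg) covered all 14364 tested probe sets. For the single MPG array the spread of the replicated stages, whose samples came from separately grown plants, was assumed. The platform table gave 1 gene for 13513 probe sets, several for 503 and none for 8730, and symbols came from RefSeq. A gene was represented by its brightest probe set, and of 75 genes with several tested probe sets 3 had opposite calls. Genes were named by size of change within lists, brightness and the study's own mentions, with further members added by eye. Members, lists and families were chosen with earlier results of these data known, families by symbol after their values were seen. The fit was tested on simulated data.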

Additional observations from a re-analysis of the deposited data

How the results depend on the processing

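The MPG array could not be left out, so every count rests on it. Leaving out 1 of the other arrays in turn gave 2409 to 2817 higher and 4998 to 5679 lower probe sets, and no probe set called in both fits turned its direction. Without the first UNM array the calls of AT1G72340, AT4G30680, CML23, FBL17, HIS1-3, SEC15A, VHA-A2, VPS20.1 and RCA were lost (adjusted p in limma 0.0585 to 0.107). Without the second UNM array those of AGL104, AT1G72340, GH9A3, HIS1-3, SEC15A, VPS2.1 and RCA were lost (0.0511 to 0.141). Without either TCP array those of AT4G30680, CML23, NET3C, VHA-A2, VPS2.1 and RCA were lost (0.0516 to 0.0702). The BCP arrays ended none of the calls of the genes in the text.

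Scaling mattered most. Quantile normalization gave 3778 higher and 4756 lower probe sets and median scaling 4149 and 4375, sharing 86.6% and 83.5% of the calls. They ended the calls of GH9A3, NET1C, SEC15A, VHA-A2 and RCA, quantile normalization also that of SDH2-1 and median scaling those of FBL17 and NET1B. Scaling to 9 spiked control probe sets, whose factors differed between the UNM arrays (1.37 and 0.766), left 1070 higher and 1273 lower and ended 63 calls of the genes in the text. With it 63 plastid genes, 8 mitochondrial genes, 4 RNA polymerase genes, 3 ribosomal RNA processing genes, 2 LSM genes and 4 translation factors were still lower, 2 Aurora kinases and 3 cation/H+ exchangers higher, and 0 exocyst, ESCRT or chromatin genes were called in either direction. Median log2 changes turned their sign for the ESCRT (-0.17, 0.31 with median scaling), PRA1 (-0.31, 0.19), chromatin (-0.38, 0.44), actin-binding (-0.08, 0.39), V-type ATPase (-0.45, 0.03), respiratory (-0.23, 0.25) and calmodulin-like genes (-0.02, 0.40), and for the RALF genes with spiked controls (0.11, -0.09).

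The 3 arrays of UNM and MPG alone gave 2189 higher and 4017 lower probe sets. The replicate numbers are not said to pair samples. Same-numbered samples deviated together (r = 0.44 for UNM and BCP, 0.22 for UNM and TCP, 0.28 for BCP and TCP, over probe sets), and a fit with a replicate block gave 3305 higher and 6111 lower, ending the call of RCA and no other call of a gene in the text. The number of probe sets found at 1 end only was sensitive to its limits. With 80 in place of 40 it was 264 for MPG and 539 for UNM, and with 10 in place of 20 it was 226 and 737. A floor of 10 or 40, a minimum of 80 or none, the minimum on UNM and MPG arrays and a trended prior variance kept both counts of calls within 1.5 times and turned no direction. Of 220 called genes named by rule or in the text, a floor of 10 ended 3 calls, a floor of 40 ended 16 and no minimum 22, and the fit on UNM and MPG arrays alone ended 40. The planned comparison of promoter motifs was not run. Signals near background limit dim genes, as the floor hides their true folds.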
